A study of Mus musculus with 12 samples.

Results

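Oxidative phosphorylation (OXPHOS) genes were taken from 2 tables of sorted mouse hair follicle stem cells (HFSCs) by their symbols, namely every gene whose symbol begins with mt-, Nduf (assembly factors of the Ndufaf series left out), Uqc, Cox4 to Cox8 or Atp5, together with Sdha, Sdhb, Sdhc and Sdhd. The rule used no measured value. It found 101 of the 17885 genes in the table of Eed iKO and control HFSCs and 103 of the 21915 genes in the hair cycle table. Mitochondrial DNA encodes 13 of them in either table, and nuclear chromosomes the other 88 and 90. Among the 90 is the pseudogene Cox5b-ps, which the symbol rule takes in and which was not tested. A filter on low values was passed by all 13 mitochondrially encoded genes in both tables, by 83 of the 88 nuclear encoded genes in the Eed table and by 82 of the 90 in the hair cycle table. Some names differ between the tables: Atp5f1 in the first is Atp5pb in the second, Atp5md stands as Usmg5 in the first and so is no member there, and Atp5o has a second identifier that shares 100% of its exon bases with neighbours and is read near 0.

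Mitochondria pass electrons from NADH through complex I and from succinate through complex II to ubiquinone, on through complex III and cytochrome c, and from there through complex IV to oxygen. The proton gradient that complexes I, III and IV build drives ATP synthesis by complex V. Mitochondrial DNA codes for core subunits of every complex but complex II, and these have to be assembled with nuclear encoded subunits made in the cytoplasm. Quiescent hair follicle stem cells are known to rely heavily on glycolysis, and the balance of glycolysis and respiration is studied in this tissue for its link to stem cell activation.

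HFSCs were sorted from skin of C57BL/6J mice by the surface markers CD34+ and EpCAM+ with high α6-integrin and no Sca1, and total RNA was sequenced in 12 libraries, 3 in each of 4 groups. Eed iKO mice are K15-CrePGR: Eed fl/fl animals, in which a progesterone receptor fused Cre under the Krt15 promoter removes Eed, a core subunit of Polycomb repressive complex 2 (PRC2), from cells of the follicle bulge. They received 100 µl of RU-486 at 10 mg/ml on the skin daily for 7 days from postnatal day 50 and were collected at day 70. Control mice of the same age received the ethanol vehicle and are labelled wildtype, so the deletion, the Cre transgene and RU-486 cannot be told apart in this comparison. The hair cycle libraries came from wildtype mice, at 28 to 30 days for anagen, when follicles grow, and at 50 to 52 days for telogen, when they rest. Stage and age cannot be told apart there. All values were deposited as normalized counts. In every Eed table library 100% of them fit whole reads divided by a single scaling factor. In the hair cycle libraries only 4.08 to 14.2% fit that form, so how reads were scaled there is not known from the values. Each table was scaled on its own, so levels were never compared between the tables.

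The Eed table rests on 33269583 to 57063586 recovered reads a library, whereas no depth could be recovered for the hair cycle table. Of the 12 bulge markers checked, all were measured in every library, Krt15 at 537200 to 707800 normalized counts in the Eed table and at 142400 to 422400 in the hair cycle table. In Eed iKO, Nfatc1, Fgf18, Tcf7l1 and Lgr5 were lower without overlap, at log2 fold changes of -0.39, -0.74, -0.47 and -0.24. Itga6, Lhx2 and Krt15 were higher without overlap, at 0.41, 0.28 and 0.23, and no bulge marker passed the adjusted test there. In anagen, the sort markers Cd34 and Itga6 moved in opposite directions, by -1.21 and 0.97 on the log2 scale (limma, Benjamini-Hochberg adjusted p = 0.00382 and 0.0144). Postn also passed in anagen, at -2.32 (limma adjusted p = 7.5e-05). Every adjusted p given here comes from limma, with Benjamini-Hochberg adjustment over all genes tested in that table. Eed mRNA itself did not separate the groups, with 1084, 1249 and 950.2 normalized counts in control and 933.3, 1361 and 1001 in the libraries labelled Eed iKO (log2 fold change -0.01, limma adjusted p = 0.993). The values count all Eed transcripts and the deposited table does not split them by exon. The proliferation marker Mki67 stood at 639, 2543 and 927.6 in control and at 6125, 6301 and 609 in Eed iKO, so the third Eed iKO library lay at the level of the controls while the other 2 lay above them. Markers of other cells overlapped in summed level between control and Eed iKO, at 1688 to 3279 and 1293 to 1930 for fibroblasts and at 200.4 to 413.5 and 233.3 to 655.9 for immune cells. Some single markers separated the groups, none past the adjusted test. The immune marker Cd207 read 0 in every control and 18.28, 13.28 and 23.73 in Eed iKO (adjusted p = 0.13, limma). Tyrp1 of melanocytes was also higher, at 3.38, on 0, 6.499 and 0 against 17.2, 25.23 and 16.81. Col1a1 of fibroblasts, Ckm of muscle and Plin1 of adipocytes were lower, at -1.48, -0.59 and -0.99. Going the other way, with overlap, were H2-Aa (-0.25), Cd3e (-0.48), Dct (-0.21), Dcn (0.34), Pdgfra (0.04), Myh1 (1.57), Mylpf (0.17) and Cidea (0.47). The remaining tested members of these lists went the same way as the named markers, also with overlap. Of all genes, 20.2% had groups that did not overlap. In bulk RNA, fewer cells of a type and less RNA per cell cannot be told apart.

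In Eed iKO HFSCs, nearly all nuclear encoded OXPHOS genes read higher than in control, although none passed the test across all genes. Of the 83 tested, 82 had a log2 fold change above 0, where 49.9% of all 15008 genes did, and their median was 0.62 (quartiles 0.43 and 0.91) against -0.00106 for all genes. With limma on log2(normalized count + 1), 0 members had a Benjamini-Hochberg adjusted p under 0.05, where 4 genes (0.0267% of all tested) did, and the smallest adjusted p of a member was 0.0754. At an unadjusted p under 0.05, 51 of the 83 were higher and 0 lower, against 8.38% and 6.33% of all genes. In 38 of the 83 the 3 Eed iKO libraries lay above all 3 controls, and in 0 below, against 10.2% and 10% of all genes. Other tests on the recovered reads called 26 nuclear encoded members higher (DESeq2, 4.48% of all genes called in either direction) or 0 (edgeR, 0.0334%).

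The 3 Eed iKO libraries did not stand equally far from the controls. Relative to the mean of the controls, the median nuclear encoded member stood at 0.74, 0.84 and 0.37 on the log2 scale in Eed iKO replicates 1, 2 and 3, and at 0.26, -0.08 and -0.16 in control replicates 1, 2 and 3. The third Eed iKO library was the lowest of its group for 70 of the 83 genes, and control replicate 1 was the highest of its group for 54. Without the third Eed iKO library, the one with Mki67 at the level of the controls, limma called 13 nuclear encoded members higher (1.22% of all genes were called), while leaving out any of the other 5 libraries gave 0. What part proliferation has in these values was not tested.

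**Figure D1:**
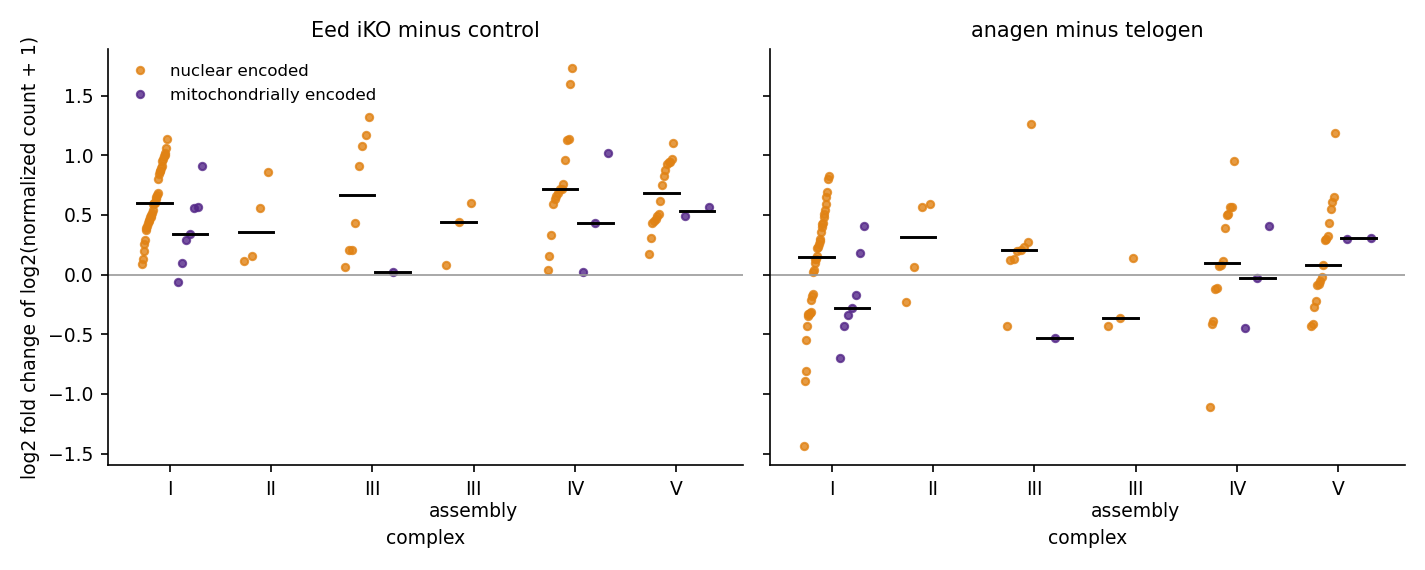
Log2 fold changes of the OXPHOS genes tested, by complex, for Eed iKO minus control (left) and anagen minus telogen (right). Each point is a gene, orange for nuclear and purple for mitochondrially encoded, and black lines are medians. On the left every nuclear encoded point drawn lies above 0, with medians of 0.36 to 0.72 (Atp5s, an accessory factor at -0.16, belongs to no column), and on the right the points lie on both sides of 0.

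Complex I, the NADH dehydrogenase, held 36 of these genes. All 36 had a log2 fold change above 0 in Eed iKO, with a median of 0.60, and 24 had an unadjusted p under 0.05. Its most abundant nuclear mRNA per transcript length was Ndufa11, an accessory membrane subunit, at 2647, 2299 and 1330 normalized counts in control and at 4478, 4783 and 3141 in Eed iKO. The groups did not overlap, and the log2 fold change was 1.02 ± 0.26 (SE; limma adjusted p = 0.13, n = 3 and 3). Its level per kilobase was 3839 in control and 7586 in Eed iKO. At the other end of complex I, Ndufs4, an accessory subunit of its peripheral arm, had values of 1498, 1812 and 1657 against 2068, 1950 and 1352, which overlap (0.09 ± 0.20, adjusted p = 0.867 by limma); it was picked after its values were seen.

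Complex II, succinate dehydrogenase, has 4 subunits, all nuclear encoded. The median log2 fold change over the 4 was 0.36. Sdha, the flavoprotein that oxidizes succinate, read 5442, 5241 and 5062 in control and 5252, 6155 and 5651 in Eed iKO, with overlapping groups and a log2 fold change of 0.11 ± 0.13 (adjusted p = 0.738, limma). Sdhb, its iron-sulfur partner, named after its values were seen as the highest of the 4, read 1120, 1158 and 1271 against 2523, 2308 and 1681, without overlap, at 0.86 ± 0.19 (adjusted p = 0.107, limma). The membrane anchors Sdhd and Sdhc stood at 0.56 and 0.16, and the order per kilobase was Sdha over Sdhd in control (1810 and 1354) and the reverse in Eed iKO (1961 and 1998).

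Among the 8 subunits of complex III, the cytochrome bc1 complex, all 8 lay above 0 with a median of 0.67. Uqcr10, a small accessory subunit, read 902.6, 703 and 622 normalized counts in control and 2411, 2284 and 1107 in Eed iKO. Every Eed iKO library was above every control, replicate 3 by the least, with a log2 fold change of 1.32 ± 0.30 (adjusted p = 0.107, limma). Uqcrh, the hinge protein that binds cytochrome c1 and the highest nuclear encoded subunit of the complex per length, read 2609, 1880 and 1910 against 4361, 4560 and 3128, again without overlap (0.91 ± 0.20, adjusted p = 0.104). Uqcrc2, a core subunit, was among the 3 lowest nuclear encoded members at 0.06 ± 0.21, with 3423, 2444 and 2334 against 3020, 3332 and 2197 (adjusted p = 0.922, limma), and 19.7% of its exon bases are shared with a neighbour. The direction for Uqcrc2 turned to -0.01 when libraries were scaled to genes that are not mitochondrially encoded. The assembly factors Uqcc1, Uqcc2 and Uqcc3 had a median of 0.44 and none had an unadjusted p under 0.05. The highest of them per length, Uqcc2, read 386.4, 278.4 and 232.1 against 548.4, 528.5 and 299.6.

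Complex IV, cytochrome c oxidase, held the gene with the largest difference. Cox5a, a nuclear encoded subunit on the matrix side, read 479.4, 358.5 and 500.5 normalized counts in control and 1614, 1891 and 1035 in Eed iKO. The groups lay far apart, and the ratio of their means was 3.39 (log2 fold change 1.73 ± 0.27, adjusted p = 0.0754, limma, n = 3 and 3). Of its exon bases, 12.8% are shared with the gene model Gm26631, and the sources used here do not say whether counting kept the strands apart. Its partner in name, Cox5b, was among the 3 lowest nuclear encoded members, with 1815, 1980 and 1514 against 1710, 2100 and 1660 (0.04 ± 0.18, adjusted p = 0.935), and its direction turned to -0.02 when scaled to genes that are not mitochondrially encoded. Of the 19 complex IV genes 15 were tested, all above 0, with a median of 0.72 and 10 with an unadjusted p under 0.05.

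Several complex IV subunits exist as paralogs that tissues use differently, and the widely expressed forms were the abundant ones here. Cox4i1 read 5414, 4138 and 3855 in control and 8222, 9331 and 5059 in Eed iKO (0.72 ± 0.23, adjusted p = 0.177, limma), with replicate 3 of Eed iKO inside the control range. The hypoxia-related form Cox4i2 was listed at 0, 24.91 and 45.34 in control and at 0 in all 3 Eed iKO libraries. Cox6a1, the highest nuclear encoded subunit of the complex per length in Eed iKO, read 4205, 2828 and 2693 against 6490, 8084 and 4516 without overlap (0.96 ± 0.23, adjusted p = 0.12, limma).

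Cox6b2, known from testis, is the exception to the low level of tissue-restricted forms. It read 111.7, 128.9 and 297.4 in control and 325.8, 301.5 and 469.6 in Eed iKO, which do not overlap (1.14 ± 0.43, adjusted p = 0.257, limma). The common form Cox6b1 read 1712, 918.6 and 1145 against 2046, 2518 and 1702, with the lowest Eed iKO value just under the highest control value (0.76 ± 0.25, adjusted p = 0.19). The muscle form Cox7a1 reached at most 28.67 normalized counts, at 0, 17.33 and 12.69 against 9.677, 21.25 and 28.67, and its log2 fold change of 1.60 ± 1.20 rests on that low level (adjusted p = 0.565). Cox7a2 and Cox7a2l, the latter a factor of respiratory supercomplexes, had log2 fold changes of 0.66 and 0.68 with groups that did not overlap (adjusted p = 0.184 and 0.11, limma). Cox7b stood at 0.63 and Cox8a at 0.33, both with overlapping groups, and Cox8a turned to -0.15 once a length trend was removed. Cox7b2, Cox8b and Cox8c had no library above 10 normalized counts. Ndufa4, once counted to complex I and now to complex IV, read 739.6, 522.1 and 532.2 against 1746, 1345 and 910.5 without overlap (1.13 ± 0.27, adjusted p = 0.12), whereas its hypoxia-induced paralog Ndufa4l2 had overlapping groups at 0.16 ± 0.51 (adjusted p = 0.914) and turned to -0.13 with a length trend removed.

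Complex V, the ATP synthase, held 16 tested subunits, all above 0 with a median of 0.69, and 11 had an unadjusted p under 0.05. Atp5b, the catalytic β subunit and the highest of all nuclear members per length, read 24660, 24490 and 30040 in control and 32010, 34420 and 23450 in Eed iKO. The value of Eed iKO replicate 3 was below all controls, and the log2 fold change was 0.17 ± 0.17 (adjusted p = 0.691, limma). Atp5j, coupling factor 6 of the stalk, read 2457, 2250 and 2133 against 4404, 5463 and 3706, without overlap (0.97 ± 0.17, adjusted p = 0.083, limma); it is given, like Atp5g3, for its low p after values were seen, and 12.7% of its exon bases are shared with Gabpa. Atp5g3, which codes for the proton-carrying c ring subunit, read 2173, 1860 and 1880 against 4349, 3883 and 3138 (0.93 ± 0.17, adjusted p = 0.0839, limma). Atp5s, a coupling factor outside the core enzyme, was the only nuclear encoded member tested below 0, at -0.16 ± 0.26 (adjusted p = 0.818), with 446.8, 569.8 and 700.9 against 517.2, 515.3 and 479.5. The inhibitor of the synthase, Atpif1, which the symbol rule does not cover, read 1593, 1227 and 1250 against 2713, 2521 and 1738 without overlap (0.76 ± 0.21, adjusted p = 0.143, limma).

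The promoters of genes with large differences were read to see whether they share letters that known regulators of respiratory genes bind. Windows of 300 bases, 250 before and 50 after the start, were taken from RefSeq on build GRCm38.p6, and 73 of the 88 nuclear members matched a gene with a window. The strings searched on both strands were the palindromic NRF1 site, CCGGAAG for the ETS family with GABPA, AAGATGGCG for YY1 and TCAAGGTCA for ESRRA, and no 2 of them overlapped in the windows shown. Shown are Cox5a and Uqcr10 for the largest differences in Eed iKO among well-counted members, Atp5j and Uqcrh as members with a match (in capitals), and Atp5b and Ndufb4, which passed the test in the hair cycle. The other 4 windows shown hold none of the 4 letter strings and are in lower case throughout.
Cox5a, chr9:57520982-57521281, plus strand: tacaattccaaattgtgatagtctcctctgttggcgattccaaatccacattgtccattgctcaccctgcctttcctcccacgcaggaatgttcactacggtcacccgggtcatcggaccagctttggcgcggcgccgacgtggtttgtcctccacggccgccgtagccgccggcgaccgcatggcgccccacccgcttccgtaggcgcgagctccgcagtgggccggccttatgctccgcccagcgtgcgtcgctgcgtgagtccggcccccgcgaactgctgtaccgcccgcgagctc
Uqcr10, chr11:4704295-4704594, minus strand: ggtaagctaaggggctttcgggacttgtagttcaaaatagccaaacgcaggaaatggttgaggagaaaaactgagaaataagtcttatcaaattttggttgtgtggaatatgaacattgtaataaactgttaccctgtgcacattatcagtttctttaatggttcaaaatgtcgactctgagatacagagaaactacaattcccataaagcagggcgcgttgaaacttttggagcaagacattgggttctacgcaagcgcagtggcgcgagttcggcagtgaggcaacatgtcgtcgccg
Atp5j, chr16:84834927-84835226, minus strand: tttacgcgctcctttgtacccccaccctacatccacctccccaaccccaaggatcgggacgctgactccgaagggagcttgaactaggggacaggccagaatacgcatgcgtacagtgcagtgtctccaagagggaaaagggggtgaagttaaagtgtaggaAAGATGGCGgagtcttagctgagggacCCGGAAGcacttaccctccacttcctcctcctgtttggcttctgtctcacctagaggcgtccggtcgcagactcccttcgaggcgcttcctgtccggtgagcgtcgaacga
Uqcrh, chr4:116075021-116075320, minus strand: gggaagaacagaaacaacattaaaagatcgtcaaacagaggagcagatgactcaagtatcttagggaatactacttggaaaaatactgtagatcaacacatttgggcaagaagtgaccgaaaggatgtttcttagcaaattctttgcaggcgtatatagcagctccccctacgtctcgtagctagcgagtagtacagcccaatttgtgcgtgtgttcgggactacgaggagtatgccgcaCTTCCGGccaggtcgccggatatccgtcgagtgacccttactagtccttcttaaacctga
Atp5b, chr10:128083057-128083356, plus strand: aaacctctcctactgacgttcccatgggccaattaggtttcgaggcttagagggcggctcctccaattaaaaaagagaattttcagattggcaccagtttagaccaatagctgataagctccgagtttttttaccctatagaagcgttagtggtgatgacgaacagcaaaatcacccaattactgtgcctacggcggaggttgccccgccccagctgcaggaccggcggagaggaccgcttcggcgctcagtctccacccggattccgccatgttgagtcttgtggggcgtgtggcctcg
Ndufb4, chr16:37654319-37654618, minus strand: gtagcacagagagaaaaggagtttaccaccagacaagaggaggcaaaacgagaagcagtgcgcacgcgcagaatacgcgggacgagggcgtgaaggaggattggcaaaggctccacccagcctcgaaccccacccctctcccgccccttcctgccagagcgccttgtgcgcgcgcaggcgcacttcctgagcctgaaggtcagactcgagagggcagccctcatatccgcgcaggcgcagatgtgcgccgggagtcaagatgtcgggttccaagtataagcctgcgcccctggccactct

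In the Atp5j window the YY1 letters lay from -88 to -80 and the ETS letters from -61 to -55 of the start, both on the strand of the gene, and in the Uqcrh window the ETS letters lay on the opposite strand from -10 to -4. A second RefSeq window of Atp5j, chr16:84835576-84835875, held none. It covers the start of the gene as annotated, at 84835625, whereas the window shown lies inside the annotated gene. Over the nuclear members with a window, ETS letters were in 21.9%, YY1 letters in 9.59%, NRF1 letters in 6.85% and ESRRA letters in 2.74%. Over the genes tested in the Eed table that had a window, these shares were 17.6, 3.09, 2.07 and 0.33%, and over all 32851 RefSeq windows 8.86, 1.4, 0.971 and 0.423%. The median log2 fold changes in Eed iKO of tested members with and without the letters were 0.80 (16 genes) and 0.63 (54 genes) for ETS, 0.83 (5) and 0.63 (65) for NRF1, and 0.65 (7) and 0.63 (63) for YY1. A match is a description of letters, not a site in use.

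**Figure D2:**
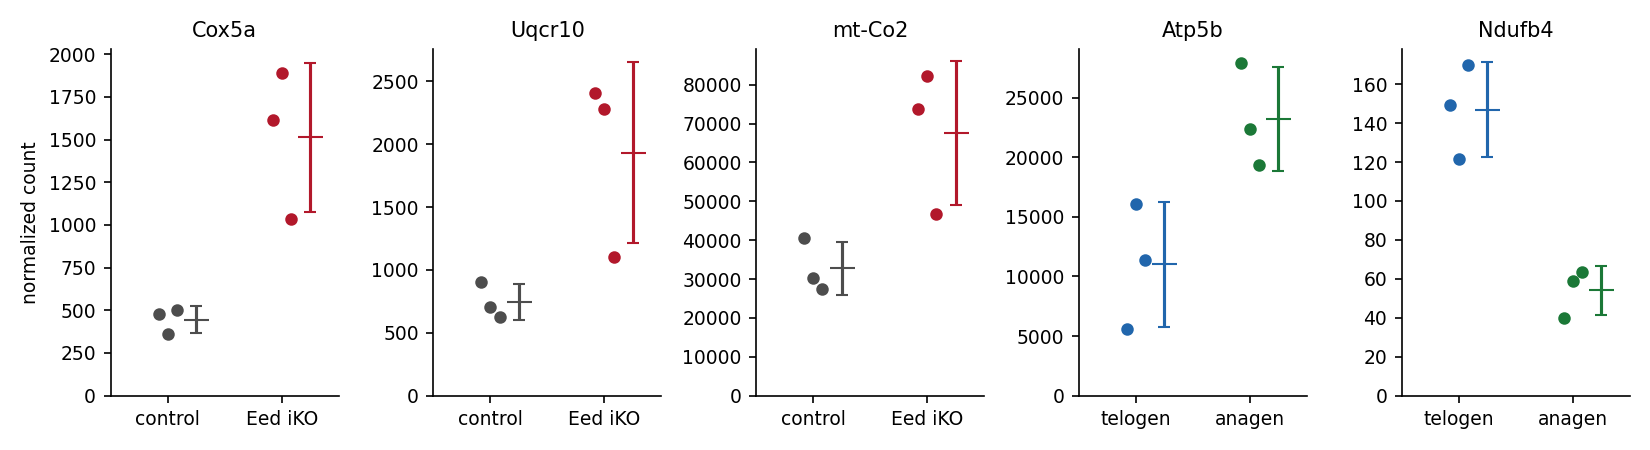
Normalized counts of 5 genes in each library (points), with the mean and SD of the 3 libraries of a group (bars), on axes that start at 0. For Cox5a, Uqcr10 and mt-Co2 all Eed iKO libraries lie above all controls with replicate 3 the lowest, Atp5b lies higher in anagen and Ndufb4 lower, each without overlap.

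The 13 mitochondrially encoded genes included both abundant and rare mRNAs. In Eed iKO their log2 fold changes lay above 0 for 12 of 13, with a median of 0.43. By limma with Benjamini-Hochberg adjustment 0 passed, 4 had an unadjusted p under 0.05, all higher (mt-Co2, mt-Nd2, mt-Atp8 and mt-Atp6), and DESeq2 on recovered reads called 2 and edgeR 0. In 3 of 13 the groups did not overlap, against 20.2% of all genes in either direction. These mRNAs are cut from long transcripts of both strands of the mitochondrial genome, and all but mt-Nd6 come from the same strand. Relative to the control mean, the median of these genes stood at 0.52, 0.84 and -0.31 in Eed iKO replicates 1, 2 and 3. Eed iKO replicate 3 was the lowest of its group for 12 of the 13 and replicate 2 the highest for all 13.

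Among them, mt-Co2 (chrM:7013-7696), the copper-binding subunit 2 of complex IV, differed most. It read 40490, 30330 and 27510 in control and 73700, 82290 and 46730 in Eed iKO. No value overlapped, and the log2 fold change was 1.02 ± 0.22 (adjusted p = 0.104, limma). Its neighbour mt-Co1, the catalytic subunit and the mitochondrial mRNA with the highest level per length, read 510600, 417200 and 387000 against 527700, 599200 and 272400 (0.02 ± 0.30, adjusted p = 0.984). The ratio of mt-Co2 to mt-Co1 within a library, which needs no scaling factor, was 7.93, 7.27 and 7.11% in control and 14.0, 13.7 and 17.2% in Eed iKO. Here replicate 3 was not nearest to the controls but farthest from them. The third mitochondrial subunit of complex IV, mt-Co3, had overlapping groups at 0.43 ± 0.31 (adjusted p = 0.537).

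Of the 7 mitochondrial subunits of complex I, mt-Nd2 read 11330, 10040 and 12100 against 16420, 19920 and 13410, without overlap (0.56 ± 0.16, adjusted p = 0.157, limma). The other 6 overlapped between groups. They stood at 0.91 for mt-Nd3, 0.57 for mt-Nd6, 0.34 for mt-Nd4l, 0.29 for mt-Nd5, 0.10 for mt-Nd4 and -0.06 for mt-Nd1, with limma adjusted p of 0.355 to 0.915. The only mitochondrial subunit of complex III, mt-Cytb, read 110900, 97900 and 102200 against 120800, 130100 and 74230, with no separation (0.02 ± 0.21, adjusted p = 0.973). When scaled to genes that are not mitochondrially encoded, mt-Co1 stood at -0.05 and mt-Cytb at -0.04, both below 0.

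In complex V, mt-Atp8 read 2033, 1681 and 1817 against 2334, 3517 and 2470 without overlap (0.57 ± 0.19, adjusted p = 0.204, limma), and mt-Atp6 55400, 45470 and 42900 against 73890, 85880 and 47500 with overlap (0.49 ± 0.22, adjusted p = 0.321). With a length trend removed from each library, mt-Atp8 turned to -0.10 and mt-Atp6 stood at 0.09. Their mRNAs share bases, so their reads cannot be fully separated. The sequence of mt-Atp8 (chrM:7766-7969 on GRCm38, plus strand) is shown for this reason, with the 43 bases that also begin mt-Atp6 (chrM:7927-8607) in capitals, which are 21.1% of its 204 bases.
mt-Atp8: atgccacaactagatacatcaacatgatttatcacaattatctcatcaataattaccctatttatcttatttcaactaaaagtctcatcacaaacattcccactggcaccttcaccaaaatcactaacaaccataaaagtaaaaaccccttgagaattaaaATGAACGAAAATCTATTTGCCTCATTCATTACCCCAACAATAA

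**Figure D3:**
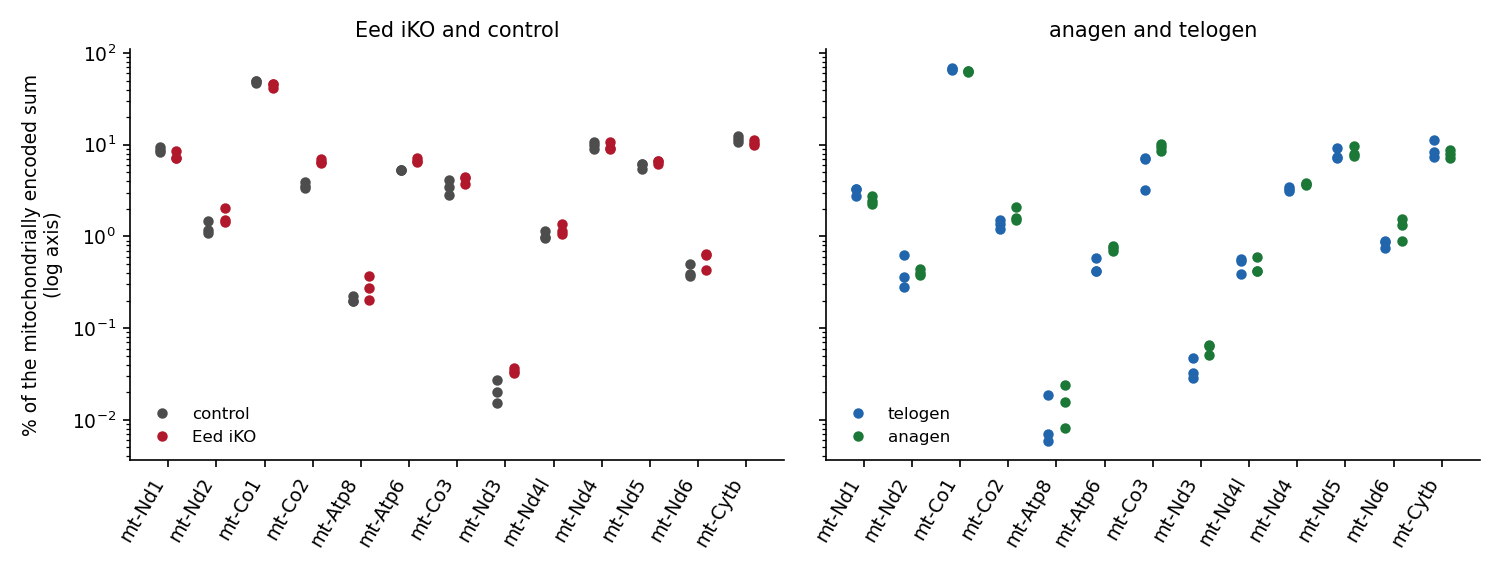
Share of each mitochondrially encoded gene in the summed normalized counts of the 13 genes, per library, in percent on a log axis, with genes in their order along the mitochondrial genome. mt-Co2 has a share of 3.36 to 3.90% in control and 6.34 to 7.06% in Eed iKO, and mt-Co1 is the largest share in every library.

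Set against each other, the nuclear encoded sum separated the groups and the mitochondrially encoded sum did not. The 13 mitochondrial genes took 2.62, 2.17 and 1.97% of the normalized counts of the control libraries and 2.76, 2.94 and 1.62% of those of the Eed iKO libraries, which overlap. The nuclear members took 0.449, 0.395 and 0.372% against 0.591, 0.593 and 0.46%. Every Eed iKO share was above every control share, with replicate 3 the closest, and the means were 0.405 ± 0.0396% and 0.548 ± 0.076% (SD, n = 3). The log2 ratio of the mitochondrial to the nuclear sum was 2.54, 2.46 and 2.40 in control and 2.23, 2.31 and 1.82 in Eed iKO, lower by 0.35 on average without overlap. It was lower by 0.24 when mt-Co1 was left out of the sum. mt-Co1 alone made up 47.2 to 49.2% of the mitochondrial sum in control and 41.2 to 46.1% in Eed iKO.

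**Figure D4:**
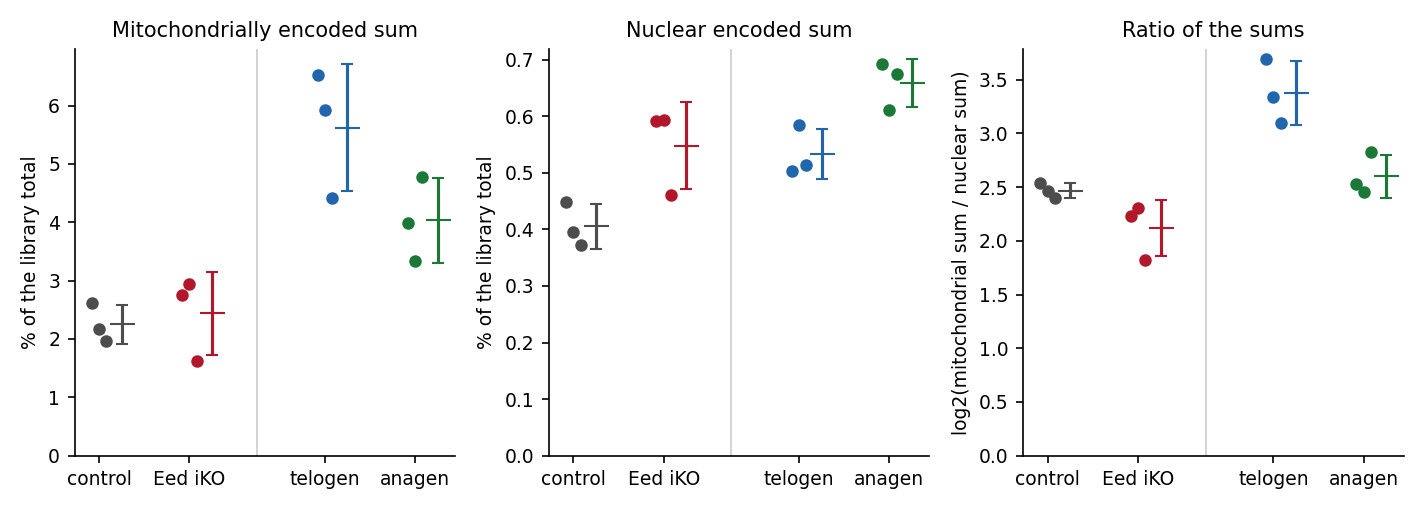
Summed normalized counts of the 13 mitochondrially encoded genes (left) and of the nuclear encoded members (middle) as percent of the library total, and the log2 ratio of the sums (right). Points are libraries and bars mean and SD. The nuclear sum is higher and the ratio lower in Eed iKO than in control and in anagen than in telogen, without overlap, while the mitochondrial sums overlap. Atp5b alone makes up 9.64 to 21.0% of the nuclear sum in telogen and 21.7 to 31.0% in anagen. The 2 tables, split by the vertical line, were scaled separately.

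OXPHOS mRNAs are short, with a median transcript length of 747.5 bases over the nuclear members against 2720 over all genes, and in the Eed table the log2 fold change ran with transcript length for genes in general. Over all 15004 genes with a length, the Spearman correlation of log2 fold change and length was -0.20, over the 83 nuclear members -0.58 and over the 13 mitochondrial genes -0.65 (across genes of the same libraries, which are not independent). Genes of up to 500 bases had a median of 0.45 (141 genes), and the 14 nuclear members among them 0.93. In the ranges up to 1000, 2000 and 4000 bases the medians were 0.33, 0.12 and -0.03 for all genes and 0.66, 0.45 and 0.41 for the members. After a smooth length trend was removed from each library, the median nuclear member stood at 0.31, with 24 of 83 at an unadjusted p under 0.05 (7.52% of all genes higher), and the median mitochondrial gene at 0.07. Of the nuclear members 73 then lay above 0, 2 at 0.00 and 8 below, and of the mitochondrial genes 7 above and 6 below. In the hair cycle table the same correlation was 0.0031 over all genes, 0.12 over the 82 nuclear members and -0.51 over the 13 mitochondrial genes. Its values may be of another kind, so no difference between the tables was read from these correlations. The part of length in the Eed iKO values was not otherwise tested.

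**Figure D5:**
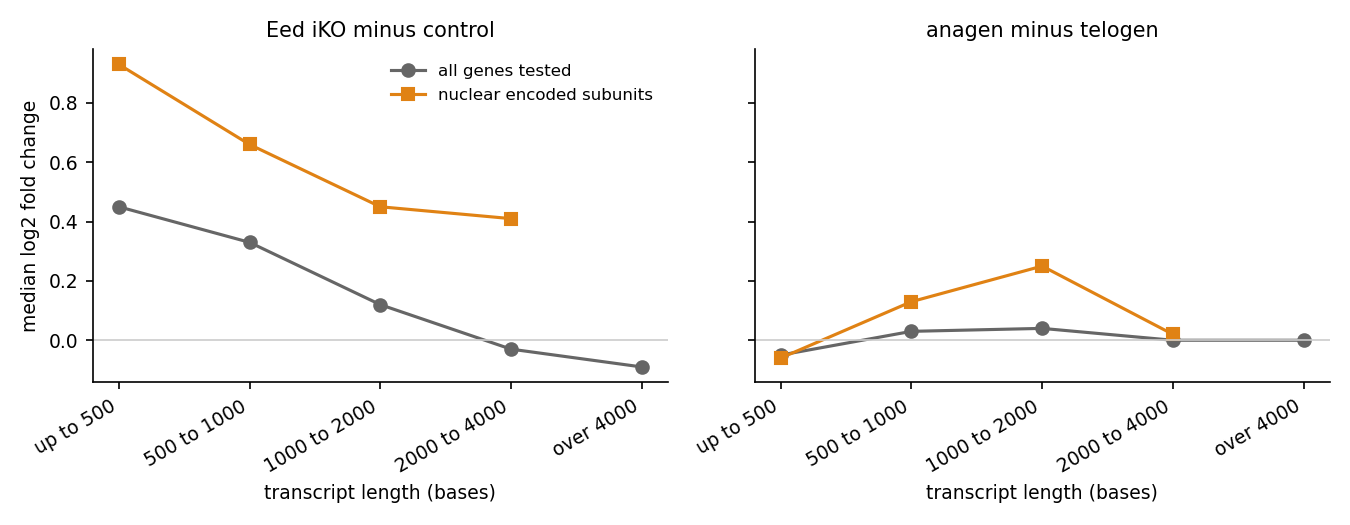
Median log2 fold change by transcript length range, for all genes tested (grey circles) and nuclear encoded OXPHOS subunits (orange squares). In the Eed comparison (left) both lines fall from short to long transcripts, from 0.45 to -0.09 for all genes and from 0.93 to 0.41 for the subunits, and in the hair cycle (right) they stay within 0.25 of 0.

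Gene lists of the same organelle and of metabolism had medians of 0.06 to 0.48 in Eed iKO, beside 0.62 for the nuclear and 0.43 for the mitochondrially encoded subunits. The 43 assembly factors tested had a median of 0.13, with 1 at an unadjusted p under 0.05 higher (Sdhaf2, which attaches the flavin of complex II, at 0.71) and 1 lower (Ttc19, a complex III factor, at -0.51). The 31 genes of mitochondrial DNA expression had a median of 0.06, and the 18 genes of pyruvate dehydrogenase and the TCA cycle 0.10. Mitochondrial ribosomal protein genes had a median of 0.48, with 28 of 78 higher at an unadjusted p under 0.05. Cytoplasmic ribosomal protein genes, also short and abundant, had the largest median, 1.00, with 71 of 82 higher at an unadjusted p under 0.05 and 1 past the adjusted test (Rps26, 1.24, adjusted p = 0.0259, limma). Their share of the library was 3.31, 2.52 and 1.98% in control and 5.24, 5.72 and 3.25% in Eed iKO. The glycolysis list had a median of 0.34 with 6 of 21 higher at an unadjusted p under 0.05, and the 7 electron carriers and feeders 0.28. With the length trend removed, the medians were 0.31 for the nuclear subunits, 0.30 for mitochondrial ribosomal proteins, 0.65 for cytoplasmic ribosomal proteins, 0.32 for glycolysis, 0.13 for carriers and feeders, 0.06 for assembly factors, 0.05 for the TCA cycle list and 0.01 for mitochondrial DNA expression.

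The 9 nuclear regulators of respiratory genes went in both directions, with 6 above 0 and a median of 0.15. At an unadjusted p under 0.05, 1 was higher and 1 lower. Ppargc1a, the coactivator PGC-1α that drives mitochondrial biogenesis, read 1383, 1267 and 1656 in control and 581.7, 515.3 and 827.5 in Eed iKO. All Eed iKO values were below all controls (-1.18 ± 0.23, adjusted p = 0.0917, limma). Nrf1, a transcription factor of many respiratory genes, read 1587, 1760 and 2056 against 2930, 2695 and 2625, all above the controls (0.62 ± 0.16, adjusted p = 0.136). Tfam, which packages mitochondrial DNA and starts its transcription and is listed with mitochondrial DNA expression, had overlapping groups at 0.46 ± 0.29 (adjusted p = 0.477).

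Between anagen and telogen HFSCs, OXPHOS genes went in both directions. Of the 82 nuclear encoded members tested, 52 had a log2 fold change above 0, where 50.6% of all 13457 genes did, with a median of 0.13 against 0.0127 for all genes. Past the adjusted threshold in limma were 1 member higher in anagen, Atp5b, and 1 lower, Ndufb4, where 11.6% of all genes passed, 7.22% higher and 4.35% lower. At an unadjusted p under 0.05, 8 were higher and 2 lower, against 15.1% and 12.2% of all genes. The groups did not overlap for 11 members higher and 5 lower in anagen, against 18.1 and 15.2% of all genes. When libraries were scaled to genes that are not mitochondrially encoded, the median of all genes moved by -0.13, to -0.12, and that of the nuclear members to 0.00, 3 members passed (1 higher, 2 lower), and the share of all calls that were higher fell from 62.4 to 48.8%.

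Atp5b rose in anagen. Its normalized counts were 5594, 16050 and 11370 in telogen and 27930, 22330 and 19300 in anagen. The lowest anagen value was above the highest telogen value, with telogen replicate 1 far below the rest, and the log2 fold change was 1.19 ± 0.33 (adjusted p = 0.0391, limma, n = 3 and 3). Leaving out each library in turn gave an adjusted p of 0.0133 to 0.154, and the call was lost without anagen replicate 1, 2 or 3 (0.154, 0.106 and 0.0795) or telogen replicate 3 (0.0651). It was also lost without an intensity trend in the fit (0.146). It alone made up 9.64, 21.0 and 19.5% of the nuclear encoded OXPHOS counts in telogen and 31.0, 29.1 and 21.7% in anagen. Atp5a1, the α subunit that forms the catalytic head with it, read 8287, 10430 and 8924 against 13160, 11230 and 12680, without overlap (0.43 ± 0.17, adjusted p = 0.14); it was picked after its values were seen. The 17 tested subunits of complex V had a median of 0.08, with 9 above 0. Atpif1, the inhibitor, had overlapping groups at 0.38 ± 0.28 (adjusted p = 0.415).

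Ndufb4, an accessory membrane subunit of complex I, fell in anagen. It read 149.3, 121.4 and 170.1 in telogen and 39.89, 58.82 and 63.76 in anagen. Every anagen value was below every telogen value, and the log2 fold change was -1.44 ± 0.40 (adjusted p = 0.0413, limma). Leaving out libraries gave 0.0464 without telogen replicate 2 and an adjusted p of 0.072 to 0.162 without any of the other 5, so the call was lost in those. Ndufs3, a core subunit of the arm that passes electrons on, read 1480, 833.6 and 754.8 against 440, 546.6 and 601.9, also without overlap, at -0.89 ± 0.28 (adjusted p = 0.0653). Of complex I as a group, 23 of the 36 stood above 0 with a median of 0.15. The highest nuclear encoded subunit per length, Ndufb9, which shares 19.5% of its exon bases with a neighbour, had overlapping groups at 0.16 ± 0.29 (adjusted p = 0.757).

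In complexes II, III and IV no member passed the adjusted test in the hair cycle. The 4 genes of complex II had a median of 0.31. Sdha read 2341, 2422 and 2907 in telogen and 2308, 2081 and 2132 in anagen, lower in all 3 anagen libraries by a small step (-0.23 ± 0.18, adjusted p = 0.447, limma). Sdhd stood at 0.06, with 842.1 per kilobase in telogen against 881.6 for Sdha and 884.7 in anagen against 749.6. Uqcrq of complex III had the highest log2 fold change of all members, 1.26 ± 0.46, from 41, 117 and 68.29 against 173.1, 117.5 and 229.4. Its lowest anagen value barely cleared the highest telogen value (adjusted p = 0.106). The 8 subunits of complex III had a median of 0.21, and Uqcrh, the highest nuclear encoded one per length, had 0.13 ± 0.30 (adjusted p = 0.817). The 3 assembly factors had -0.36, with Uqcc1, the highest of them per length in telogen, at -0.36 ± 0.28 (adjusted p = 0.443).

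Of complex IV, 14 of 20 genes were tested, with a median of 0.10. Ndufa4 read 149.6, 204.5 and 173.1 in telogen and 296.4, 394.2 and 331.5 in anagen, without overlap (0.95 ± 0.29, adjusted p = 0.0564, limma). Ndufa4l2 overlapped at -0.39 ± 0.56 and at most 40.4 normalized counts. Cox6b2, above in Eed iKO, read 17.46, 62.33 and 41.96 in telogen against 16.53, 18.65 and 13.61 in anagen, with the first telogen value among those of anagen (-1.11 ± 0.63, adjusted p = 0.282). The abundant forms had log2 fold changes of 0.57 for Cox4i1, 0.51 for Cox6a1, 0.11 for Cox6b1, -0.11 for Cox7a2, -0.12 for Cox7a2l, 0.07 for Cox7b and -0.41 for Cox8a, with overlapping groups for all 7 and adjusted p of 0.267 to 0.883. Cox6a2, Cox8b and Cox8c were listed at 0 in all 6 libraries, and Cox4i2, Cox7a1 and Cox7b2 had no value above 10.

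The 13 mitochondrial genes had a median of -0.17 in anagen against telogen, 5 above and 8 below 0. By limma 0 passed the adjusted test and 1, mt-Nd1, had an unadjusted p under 0.05. It read 24820, 25520 and 13890 in telogen and 11810, 10090 and 17260 in anagen, with telogen replicate 3 inside the anagen range (-0.70 ± 0.27, adjusted p = 0.124, limma, and 0.0324 without that library). In 0 of the 13 the groups stood apart, where 33.3% of all genes did. Relative to the telogen mean, the median gene stood at 0.27, 0.22 and -0.56 in telogen replicates 1, 2 and 3 and at -0.17, -0.56 and 0.17 in anagen replicates 1, 2 and 3, so the groups overlapped. Telogen replicate 3 and anagen replicate 2 were each the lowest of their group for 12 of the 13 genes.

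The other mitochondrial mRNAs stood at -0.53 for mt-Cytb, -0.45 for mt-Co1, -0.43 for mt-Nd4l, -0.34 for mt-Nd2, -0.28 for mt-Nd5, -0.17 for mt-Nd4 and -0.03 for mt-Co2. Above 0 were mt-Co3 and mt-Nd3 at 0.41, mt-Atp8 at 0.31, mt-Atp6 at 0.30 and mt-Nd6 at 0.18. Limma adjusted p for these 12 was 0.287 to 0.958. Levels in mt-Atp8 were low here, at 34.7 to 139.7 normalized counts.

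As shares of the mitochondrial sum, several of these genes did separate anagen from telogen. mt-Co1 made up 65.9, 67.0 and 68.8% in telogen and 63.9, 64.2 and 62.0% in anagen, and mt-Nd1 3.31, 3.29 and 2.77% against 2.28, 2.41 and 2.74%, both lower in every anagen library. mt-Co3 made up 3.24, 7.15 and 7.06% against 8.64, 10.1 and 9.41%, and mt-Atp6 0.589, 0.418 and 0.421% against 0.743, 0.698 and 0.79%, both higher in every anagen library. The ratio of mt-Co2 to mt-Co1 was 1.86, 2.28 and 1.97% in telogen and 2.35, 2.49 and 3.42% in anagen, again without overlap. The shares of mt-Nd3, mt-Nd6 and mt-Nd4 were also higher in every anagen library. Shares separated Eed iKO from control too, with mt-Co1 lower and mt-Co2, mt-Atp6, mt-Nd5 and mt-Nd3 higher, each without overlap. Shares of a sum add up to a fixed total, so a lower share of mt-Co1 raises the others.

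The mitochondrial sum took 6.53, 5.92 and 4.41% of the telogen libraries and 3.99, 3.33 and 4.78% of the anagen libraries, which overlap. The nuclear sum took 0.504, 0.584 and 0.513% against 0.692, 0.611 and 0.674%, higher in every anagen library. Atp5b alone made up 9.64, 21.0 and 19.5% of that sum in telogen and 31.0, 29.1 and 21.7% in anagen. Whether the nuclear sum separates the groups without Atp5b was not tested. The log2 ratio of the sums was 3.69, 3.34 and 3.10 in telogen and 2.53, 2.45 and 2.83 in anagen, without overlap, with means of 3.38 ± 0.297 and 2.60 ± 0.2 (SD, n = 3). With mt-Co1 left out of the sum the difference was -0.62 and the groups overlapped, telogen replicate 3 at 1.42 and anagen replicate 3 at 1.43. This rests on the abundant genes, since the mean of log2 values over genes in place of sums gave a difference of -0.21 with overlapping groups. Proliferation markers separated these groups widely, with all 5 past the adjusted test and Mki67 at 276.1 to 430.6 in telogen against 10400 to 14950 in anagen. Summed melanocyte markers, of another cell type of the bulge, were at 81.3 to 159.6 in telogen and 437 to 802.8 in anagen with Dct the only one of 4 tested past the adjusted test, and the summed endothelial markers were at 72.67 to 138.6 and 132.2 to 167. Single markers of other cells also passed the adjusted test. Tek of endothelial cells rose by 2.98, from 5.115, 17.57 and 5.336 to 74.72, 62.01 and 72.36, while Cdh5 was at 0 in all 6 libraries. Pecam1, also endothelial, overlapped at -0.08. Dcn and Col1a1 of fibroblasts rose by 4.05 and 2.06 (2 of the 4 fibroblast markers tested), though the fibroblast sums overlapped at 316.2 to 648.8 and 469.5 to 627.9. The other 2 fibroblast markers tested were lower and did not pass, Col1a2 at -1.0 without overlap and Pdgfra at -1.02 with overlap. Awat2 of sebaceous glands fell by 2.64, while Scd3 stood at -2.16 and Scd1 at 0.57, both with overlap. The muscle markers Myh4 and Tnnt3 were at 0. What part these have in the ratio was not tested.

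Of the 19 glycolysis genes tested in the hair cycle, 6 rose past the adjusted test and 0 fell, where 7.22% and 4.35% of all genes did, with a median of 0.56. At an unadjusted p under 0.05, 8 were higher and 2 lower. Pgk1, the phosphoglycerate kinase, read 882.7, 1291 and 808.3 in telogen and 2922, 2448 and 2514 in anagen (1.43 ± 0.22, adjusted p = 0.00247, limma), and the enolase gene Eno1 and the lactate carrier Slc16a1 rose by 2.41 and 2.18 (adjusted p = 0.00625 and 0.0106). All 18 genes of pyruvate dehydrogenase and the TCA cycle stood above 0, with a median of 0.42 and 0 past the adjusted test (4 at an unadjusted p under 0.05). Acad9, a complex I assembly factor, rose by 2.75 ± 0.50 (adjusted p = 0.00583, limma), from 151.1, 779.7 and 729.2 to 3220, 3035 and 2684, while the 42 assembly factors tested had a median of 0.00. Ppargc1a fell by 4.08 on the log2 scale, from 253.6, 448.1 and 560.1 to 9.246, 15.9 and 75.85 (SE 0.67, adjusted p = 0.00332). Mitochondrial ribosomal protein genes had a median of 0.07, with Mrpl49 past the test (1.13, adjusted p = 0.0332), and mitochondrial DNA expression genes 0.01, electron carriers and feeders 0.27 and cytoplasmic ribosomal protein genes 0.09.

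The comparisons use no library in common, and their values can be set side by side. Of 81 nuclear members tested in both, 51 had log2 fold changes above 0 in both and 30 were above 0 in Eed iKO and below 0 in anagen. Across these genes the Spearman correlation was -0.07 (n = 81 genes, given as a description). Picked for their place in Eed iKO, Cox5a stood at 0.50 ± 0.31 in anagen (adjusted p = 0.318, limma), and Uqcr10 at -0.43 ± 0.66 (adjusted p = 0.712). Of the 13 mitochondrial genes, 5 were above 0 in both, 7 above 0 in Eed iKO only and 1, mt-Nd1, below 0 in both, and their Spearman correlation was 0.74 (n = 13 genes of a common genome, given as a description). Over these genes the log2 fold change correlated with transcript length at -0.65 in Eed iKO and -0.51 in anagen. What part length has in the 0.74 was not tested. Ppargc1a was lower and the ratio of mt-Co2 to mt-Co1 higher in Eed iKO than in control and in anagen than in telogen, without overlap in either. Groups did not overlap for 20.2% of all genes in the Eed table and 33.3% in the hair cycle table. The ratio was not a planned measure. The 2 genes behind the ratio differed, with mt-Co2 at 1.02 and mt-Co1 at 0.02 in Eed iKO and at -0.03 and -0.45 in anagen. As a share of the mitochondrial sum, mt-Co2 overlapped between anagen and telogen. Shares without overlap in both comparisons were those of mt-Co1, lower, and of mt-Atp6 and mt-Nd3, higher. Genes of a library share its depth and composition, so none of these counts is a count of independent events.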

How the data were processed

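RNA of sorted HFSCs was sequenced in 12 libraries, 3 in each of 4 groups, from 10 ng of total RNA with 150 nt paired reads. The authors quantified reads with kallisto 0.42.5 against Gencode vM20, named protein-coding genes as those tested, and deposited a signal per gene and library. It is named as the read count divided by a DESeq2 scaling factor, a form that most hair cycle values did not show. The authors' own log2 fold changes, the Wald score and the p-values of their comparisons are deposited beside these columns, and none was used. Whether counting kept strands apart is not given in the sources used here.

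Genes were tested with limma 3.58.1 (R 4.3.3) with an intensity trend on log2(normalized count + 1), within each table, after edgeR's expression filter with a count minimum of 10, and Benjamini-Hochberg adjusted over all genes tested. A call is an adjusted p under 0.05. Fold changes on this scale understate changes of low genes. Whole reads could be recovered for the Eed table and were tested with DESeq2 1.42.0 and edgeR 4.0.16. Levels per kilobase used transcript lengths of Gencode vM21 (GRCm38). On simulated data with known changes, a log2 fold change of 1 was recovered for 59% of changed genes in the Eed comparison (14925 genes) and 21% in the hair cycle (13324 genes). False calls numbered 9 and 11. The simulation gave every gene the same spread and no deviation shared by the genes of a library. These shares therefore do not measure the sensitivity on the real libraries.

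Genes named are all 13 mitochondrial genes, called nuclear members, the 3 highest and 3 lowest log2 fold changes, the highest level per length of each complex, paralog pairs, the inhibitor, and up to 3 genes of each pathway list by lowest p. The members and lists were chosen with earlier results of these data known. The study's methods call the replicates biological and draw the Eed groups from more than a single litter, but the labels do not tie a library to an animal or litter. Other scaling, pseudocount, filter, trend, tool, replicate block, call rule and left-out libraries were tried. Removing a length trend, leaving out mt-Co1 and averaging log2 values were added after seeing the data. The ratio of mt-Co2 to mt-Co1 and the shares of single genes were not planned measures.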

Additional observations from a re-analysis of the deposited data

How the results depend on the processing

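In Eed iKO the median log2 fold changes of nuclear and mitochondrially encoded genes stayed above 0 under every alternative, at 0.5 to 0.8 and 0.21 to 0.64 without each library, and at 0.31 and 0.07 with the length trend removed. The count of nuclear members called was 0 with limma and edgeR, 26 with DESeq2 (4.48% of all genes), 1 by the methods' thresholds (1.75%) and 51 at an unadjusted p under 0.05 (14.7%). It was 0 to 13 without each library, with 13 without Eed iKO replicate 3 (1.22% of all genes). For mitochondrial genes the count was 2 with DESeq2, 4 unadjusted, and 0 to 1 without each library, beside the same shares of all genes. The difference in the log2 ratio of the sums was -0.45 to -0.2 without each library.

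In the hair cycle the 2 nuclear calls became 0 without a filter on low values (7.73% of all genes called), 1 without an intensity trend (6.26%) and 0 by the methods' thresholds (5.1%). At an unadjusted p under 0.05 there were 10 (27.3% of all genes). Leaving out each library gave 0 to 4 (4.26 to 11.1% of all genes), with 4 without telogen replicate 2 (10.9%). The median of the nuclear members was -0.05 to 0.28 without each library, reversed without telogen replicate 3, and the mitochondrial calls were 0 to 1, with 1 unadjusted (27.3% of all genes). That difference was -0.92 to -0.62 without each library and -0.21 as a mean of log2 values. The cause of these changes was not tested.

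With the replicate number as a block, limma called 20 nuclear (2.83% of all genes) and 1 mitochondrial member in Eed iKO and 1 nuclear member in the hair cycle (9.1%). Deviations of same-numbered libraries correlated at 0.039, 0.0684 and 0.193 in the Eed table and at -0.0348, -0.0711 and -0.0294 in the hair cycle. The numbers were not taken to pair the samples, since the labels give no pairing. Correlations over all genes cannot decide whether same-numbered libraries share a litter or batch.

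Some genes changed sign. In Eed iKO, scaling to genes not mitochondrially encoded gave -0.02 for Cox5b, -0.01 for Uqcrc2, -0.05 for mt-Co1 and -0.04 for mt-Cytb. Removing the length trend gave -0.33 for Cox5b, -0.29 for mt-Nd4l, -0.09 for mt-Co1, -0.05 for mt-Nd4, -0.1 for mt-Atp8 (0.57 before) and -0.19 for mt-Cytb, and turned 7 of the 83 nuclear and 5 of the 13 mitochondrial members below 0 in all, Ndufa12, Ndufb6, Ndufc1, Uqcrb, Cox8a and Ndufa4l2 among them. Without each library, Cox5b ran from -0.06 to 0.13, Uqcrc2 from -0.06 to 0.24, mt-Co1 from -0.2 to 0.37, mt-Nd1 from -0.2 to 0.15, mt-Nd4 from -0.05 to 0.32 and mt-Cytb from -0.13 to 0.28. In the hair cycle mt-Nd2 ran from -0.8 to 0.08, mt-Nd6 from -0.02 to 0.56, mt-Nd4 from -0.33 to 0.0, mt-Atp8 from -0.08 to 0.91 and mt-Co2 from -0.32 to 0.18. Of 532 values for single genes under alternatives, 474 kept direction and side of the threshold, 32 reversed, 13 came to pass the threshold and 13 no longer passed it. TMM scaling and a pseudocount of 0.1 reversed none of the medians. Without recovered reads, DESeq2 and edgeR were not run on the hair cycle table.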
